A study of Mus musculus with 8 samples.

Results

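Clone 8 is 1 of 4 clonal lines of p53 knockout mouse bone marrow stem cells, grown as mesenchymal stem cells, and its 2 RNA-seq libraries were set against the other 6 of the series. Those 6 come from clones 2, 4 and 12. All 4 lines carry the label p53 knockout, were below passage 20 and were grown in a commercial mouse mesenchymal medium. Each line received both of 2 retroviruses, in separate cultures. The control virus was for luciferase (Luc), a light-producing enzyme. The other was for cFos, a subunit of the AP-1 transcription factor. A library is named here by its virus and clone, so Luc 8 is the luciferase library of clone 8. The members were picked by the clone number in the sample titles, 2 of 8 libraries. That rule uses no measured value, but clone 8 was chosen with earlier results of these data known. Clone 8 is 1 line with 1 library for each virus, so it has no replicate of its own. Values of the other lines are given one by one or as mean ± SD over the 3 clones of a virus arm. The strain, sex and age of the mice, and whether the 4 lines came from 1 animal, are not given in the labels.

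Mesenchymal stem cells of the marrow give rise to bone, cartilage and fat cells and support blood formation by secreting factors such as Cxcl12. A clonal line keeps what its founder cell carried: its stage along a lineage, its chromosomes and its imprinted marks, the parental methylation that sets which allele of some genes is read. Cells without p53 lose a brake on division and tolerate changes in chromosome number. These points are background and not results.

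Levels are in FPKM, the number of fragments scaled by transcript length and by library depth, summed per gene, with 0.5 added before the log2. Sequence aligned to transcripts came to 7.14 gigabases in Luc 8 and 7.53 in cFos 8, and the 8 libraries spanned 6.93 to 9.14. The deposited values carry no read counts. The confidence limits deposited with them were not used here, so single values are given without an interval. The stromal gene Col1a1, a bone and tendon collagen, stood at 1158 FPKM in Luc 8, within the range of the other Luc libraries, and at 1180.4 in cFos 8, below the other cFos libraries at 1501.4 to 1865.3. Cxcl12, Pdgfra, Pdgfrb and Runx2 were all present in clone 8, while the surface markers Thy1 (0.597 and 15.9) and Nt5e (0.265 and 0.552, Luc 8 then cFos 8) were low in at least one clone 8 library, as Thy1 was in clones 2 and 4. One defining gene of each other cell type was at or near 0 in clone 8: Ptprc of blood cells at 0.0103 and 0.00506, Cdh5 of endothelium at 0 in both, Epcam of epithelium at 0 and 0.0135, Sox10 of Schwann cells at 0 in both and Myod1 of muscle at 0 in both (Luc 8, then cFos 8). Of the 60 genes in the 5 lists of such markers, 58 were in the files and 10 passed the filter on low values. Other members were higher. The blood list summed to 1.72 FPKM in Luc 8 and 62.8 in cFos 8, and to 1.74 to 147 in the other libraries. Nearly all of it with cFos was the globin Hba-a1, at 61.0 in cFos 8 and 33.1 to 144 in the other cFos libraries. The epithelial list summed to 1.74 and 359 against 6.69 to 151, nearly all Krt19. The neural list summed to 18.0 and 22.8 against 5.82 to 13.3, led by S100b. The endothelial list summed to 8.18 and 7.54 against 2.78 to 7.95, nearly all Egfl7, and the muscle list to 1.31 and 2.63 against 0.763 to 5.26. The part of these genes in the results was not tested. Trp53, which encodes p53, was read at 6.17 FPKM in Luc 8 and 6.32 in cFos 8, below 8.17 ± 1.01 and 6.66 ± 0.219 in the other Luc and cFos libraries (SD, n = 3). Fos, the gene the virus adds, was higher in the cFos than in the Luc library of every clone. The labels do not say which part of Trp53 is deleted, so its transcript level checks nothing.

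The first question was which genes set clone 8 apart whatever the virus. Clone 8 held high levels of genes that the other lines scarcely expressed, led by Car3, Negr1 and the imprinted genes Dio3 and Meg3, and low levels of Tnfrsf11b, Sfrp4 and Ccl5. Across 11737 genes, limma with virus arm as covariate called 19 genes higher in clone 8 (0.162% of the genes tested) and 9 lower (0.0767%) at a Benjamini-Hochberg adjusted p under 0.05. All 28 had both clone 8 libraries outside the range of the other clones in the same arm. Over all genes tested, 10.7% lay above and 14.8% below in this way. The call itself favours such genes, so the count of 28 adds no evidence. This fit takes the 2 libraries of a clone as independent, although only 1 clone stands against 3, so its p-values are too small. A fit on the 4 clone means called 0 genes, with 1238 at an unadjusted p under 0.05 against 1910 by library, and its smallest adjusted p was 0.241. With the correlation within a clone estimated (0.151), 12 genes were called. Blocking on the clone, so that the error comes from differences within clones alone, called 66 genes higher and 51 lower. The block leaves the spread between clones out of the error, so its p-values are too small where clones differ. Every gene described below as passing only with the block missed the threshold on clone means, with adjusted p from 0.355 for Rian to 0.533 for Plin4. The calls by library also rested on single libraries. The totals called were 6 higher and 1 lower without cFos 2, 11 and 9 without Luc 4 and 4 and 1 without cFos 4. They were 9 and 5 without Luc 12, 4 and 2 without cFos 12 and 29 and 16 without Luc 2. Not all of these are among the 28: of 19 named called genes, 4 stayed called without cFos 2 and 16 without Luc 2. Without Luc 8 or without cFos 8, clone 8 has 1 library, and most of the named calls were lost in each case.

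Car3, a carbonic anhydrase abundant in fat and muscle, stood at 67.6 FPKM in Luc 8 and 60.0 in cFos 8. In the other lines it ran from 0.194 to 4.22. The log2 difference was 5.34 (SE 0.77, limma adjusted p = 0.0477), and the call was lost at a pseudocount of 0.1 (adjusted p = 0.0769). Negr1, a cell surface adhesion molecule of the immunoglobulin class best known from neurons, was at 14.7 in Luc 8 and 23.8 in cFos 8, and at no more than 0.658 in any other library. Its difference was 4.91 (SE 0.30, adjusted p = 0.00189). Negr1 passed the filter on low values only through the clone 8 libraries, so it had to differ. The same held for 6 of the 19 genes called higher, Adh1, Comp, Hcar1, Negr1, Serpina3c and an unnamed transcript, and for 180 of all genes tested. The call of Negr1 was lost without Luc 8 (adjusted p = 0.112) and at a minimum of 5 FPKM in 2 libraries (0.0615), with the direction kept in both.

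Further genes were present in clone 8 and low elsewhere. Adh1, an alcohol dehydrogenase, was at 8.94 in Luc 8 and 7.29 in cFos 8 and at most 0.768 in the others. Hcar1, the lactate receptor of fat cells, was at 6.96 and 7.43, with at most 1.03 in the others. Cox4i2, an alternative subunit of cytochrome c oxidase, was at 10.2 and 7.19 against 0.566 to 1.01. Comp, a cartilage and tendon matrix protein, was at 6.07 and 10.3 with at most 1.29 elsewhere. Sorcs1, a sorting receptor, was at 10.1 and 24.7 against 0.260 to 4.10. In these 5 genes neither clone 8 library came near the range of the other lines. Lying outside that range in both arms was a condition for naming them.

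Other called genes were expressed in all lines and higher in clone 8. The sialyltransferases St3gal1 and St6galnac2, which add sialic acid to glycans, were at 33.1 and 17.4 in Luc 8 against 5.75 ± 2.31 and 3.76 ± 0.659 in the other Luc libraries (SD, n = 3). In cFos 8 they were at 22.1 and 9.60 against 4.48 ± 0.511 and 2.93 ± 0.935. Svep1, a large secreted adhesion protein, was at 70.2 in Luc 8 against 10.7 ± 1.83, and at 11.1 in cFos 8 against 3.25 ± 0.111. The same gene was lower in the cFos than in the Luc library of every clone. Fzd1, a Wnt receptor, was at 56.1 and 32.6 in clone 8 and at 11.5 to 16.9 in the other lines.

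**Figure D1:**
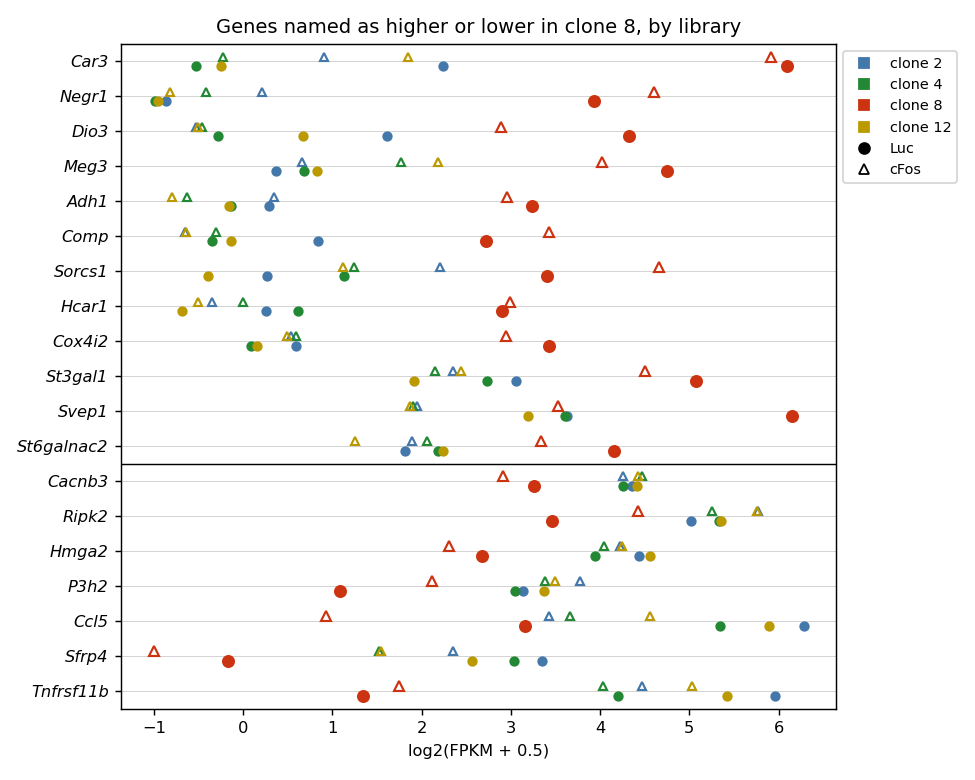
Level of the 19 named genes called higher (above the line) or lower (below it) in clone 8, as log2(FPKM + 0.5) on the x axis, 1 point per library, with colour for the clone, filled circles for Luc and open triangles for cFos. In each gene both clone 8 points lie to one side of the 3 other points of the same virus, which was a condition for naming it.

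Among the genes called lower, several encode secreted or signalling proteins. Tnfrsf11b encodes osteoprotegerin, the decoy receptor that blocks osteoclast formation. It was at 2.03 FPKM in Luc 8 and 2.85 in cFos 8, against 40.5 ± 21.9 in the other Luc and 23.3 ± 8.29 in the other cFos libraries (SD, n = 3). The difference was -3.31 (SE 0.47, limma adjusted p = 0.0468), and it missed the threshold with a pseudocount of 1 (adjusted p = 0.0509). Sfrp4, a secreted Wnt antagonist, was at 0.392 in Luc 8 and listed at 0 in cFos 8, against 7.60 ± 2.14 and 3.13 ± 1.29. Ccl5, an inflammatory chemokine, was at 8.43 and 1.41 against 58.7 ± 18.6 and 15.1 ± 6.91. Hmga2, a chromatin protein of embryonic and tumour cells, was at 5.89 and 4.44 against 14.9 to 22.997. P3h2, a collagen prolyl hydroxylase, was at 1.62 and 3.83 against 7.77 to 13.2. Ripk2, a kinase of innate signalling, was at 10.5 and 20.9 against 32.0 to 53.9, and Cacnb3, a calcium channel subunit, at 9.05 and 7.04 against 18.6 to 21.6. In all 7 genes both clone 8 libraries were lower than every library of the other lines. Lying below within each arm was a condition for naming them.

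The same fit with each other clone as the odd one put these counts in scale. It called 0 genes for clone 2 and 0 for clone 4 (591 and 639 at an unadjusted p under 0.05), and 12 higher and 2 lower for clone 12. On clone means the same comparison called 3 genes for clone 2, 0 for clone 4, 0 for clone 8 and 1 for clone 12. Both libraries of clone 8 lay above all other clones of the same arm at 1256 genes (10.7%) and below them at 1738 (14.8%). For clone 12 these counts were 1140 and 1276, for clone 4 they were 1245 and 880, and for clone 2 they were 752 and 618. The median size of the difference was 0.23 for clone 8, 0.20 for clone 12, 0.19 for clone 4 and 0.16 for clone 2 on the log2 scale. Clone 8 had 707 genes that differed by at least 1 (6.02%), and clone 12 had 546 (4.65%). The differences between clones in these counts were not tested, since each rests on 1 line.

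The imprinted Dlk1-Dio3 domain of chromosome 12 gave 2 of the named called genes, Meg3 and Dio3, and a called unnamed entry that overlaps Meg3. In this domain the paternal chromosome expresses the coding genes Dlk1, Rtl1 and Dio3, and the maternal one expresses long noncoding RNAs, Meg3, Rian and Mirg, the latter 2 being hosts of small nucleolar RNAs and microRNAs. Dio3 encodes the deiodinase that inactivates thyroid hormone. In the coordinates of the deposited tables (mm9) the domain ran from Dlk1 (chromosome 12, 110691033 to 110701546) through Meg3 (110779206 to 110809939), Rian (110842155 to 110899921) and Mirg (110973191 to 110987667) to Dio3 (111517440 to 111519307). A RefSeq table of promoters (build GRCm38.p6, 250 bases before to 50 after the start of a gene) held 6 of the 7 genes. Start regions of Meg3 (the first one listed), Rian and Dio3 are printed as places where these transcripts begin. They read 5′ to 3′ on the plus strand, with each CG, the pair that methylation marks, in capitals. They span chr12:109540746-109541045, chr12:109603695-109603994 and chr12:110278980-110279279 of that build.
Meg3: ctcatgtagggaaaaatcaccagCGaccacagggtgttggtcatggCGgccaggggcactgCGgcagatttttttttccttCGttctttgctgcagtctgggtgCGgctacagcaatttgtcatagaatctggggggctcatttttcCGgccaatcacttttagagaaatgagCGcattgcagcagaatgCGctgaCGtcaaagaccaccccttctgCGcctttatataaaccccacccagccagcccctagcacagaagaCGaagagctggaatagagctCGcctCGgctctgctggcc
Rian: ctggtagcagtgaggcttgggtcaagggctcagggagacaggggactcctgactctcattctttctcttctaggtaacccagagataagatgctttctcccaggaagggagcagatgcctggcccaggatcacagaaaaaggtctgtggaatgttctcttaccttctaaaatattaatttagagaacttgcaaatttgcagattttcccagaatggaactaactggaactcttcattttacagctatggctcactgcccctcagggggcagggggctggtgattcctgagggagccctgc
Dio3: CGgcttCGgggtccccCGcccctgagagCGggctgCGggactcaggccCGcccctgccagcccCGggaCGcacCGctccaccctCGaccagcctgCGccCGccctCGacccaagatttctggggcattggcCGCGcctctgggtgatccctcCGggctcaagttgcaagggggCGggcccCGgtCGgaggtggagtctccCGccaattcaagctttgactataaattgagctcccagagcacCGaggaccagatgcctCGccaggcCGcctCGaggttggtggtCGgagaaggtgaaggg
The printed Meg3 stretch has 13 CG pairs, that of Rian has 0 and that of Dio3 has 25, beside a median of 7 over all 32851 promoters of the table. A further Meg3 start region, at chr12:109545148-109545447 and not printed, has 1 CG pair. The AP-1 letters TGANTCA, which read the same on both strands, are in none of the 3 printed stretches, and 7.81% of all promoters of this length hold them. No other form of an AP-1 site was searched, so its absence is not shown. The files give no methylation and no binding, so these letters only show the sequence.

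Meg3 was at 26.4 FPKM in Luc 8 and 15.8 in cFos 8. In the other lines it was at 0.791, 1.10 and 1.28 in Luc and at 1.08, 2.92 and 4.02 in cFos (clones 2, 4 and 12). The groups did not overlap, and the difference was 3.31 (SE 0.46, limma adjusted p = 0.0430). Rian was at 40.9 in Luc 8 and 55.85 in cFos 8, and at 1.54 to 14.5 in the others. Its difference of 3.26 (SE 0.49) missed the threshold by library (adjusted p = 0.0586) and passed with the clone as a block (0.0172). Mirg was at 2.08 and 1.59, with 0.131 to 0.542 in the others. Dio3 was at 19.5 in Luc 8 and 6.91 in cFos 8, against 1.32 ± 1.14 and 0.209 ± 0.0153 (SD, n = 3), a difference of 3.52 (SE 0.43, adjusted p = 0.0289). Dio3os, transcribed on the other strand next to Dio3, was at 7.45 and 2.78, with at most 1.70 elsewhere. Dlk1 did not share this: it was at 2.44 in Luc 8 and 0.541 in cFos 8, inside the range of 0.529 to 4.92. Rtl1, which lies opposite the microRNAs, was at 0.0774 or less in all 8 libraries. Thus 5 of the 6 named genes tested, of both parental classes, were above every other line in both arms (10.7% of all genes), and Dlk1 was not. Mirg and Dio3os were tested only because clone 8 carried them past the filter, so their place in this count adds no evidence.

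In clone 8, Rian alone of the 6 named genes tested was higher with cFos than with Luc. Dio3 and Dio3os were lower in cFos than in Luc in all 4 clones, with differences of -1.44 and -1.28 in clone 8 on the log2 scale. Rian was higher in cFos than in Luc in all 4 clones. Meg3 had a cFos minus Luc difference of -0.73 in clone 8 and was higher with cFos in the other 3, and Mirg had the same pattern of signs. An unnamed entry that overlaps Meg3 was also called, at 9.12 in Luc 8 and 4.10 in cFos 8, and reads of the 2 cannot be told apart. Of the 65 entries shorter than 200 bases in the domain, microRNAs and small nucleolar RNAs, 63 were at 0 in every library. Such short RNAs are poorly held by a polyadenylated library, and their levels were not measured here. Clone 2 had lower levels along all of chromosome 12 (median difference -0.49). Without its 2 libraries Meg3 differed by 3.02 (limma adjusted p = 0.0776) and Dio3 by 3.75 (0.0355). The call of Meg3 was also lost without clone 4 (0.110) or clone 12 (0.0931), and that of Dio3 without clone 12 (0.121).

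**Figure D2:**
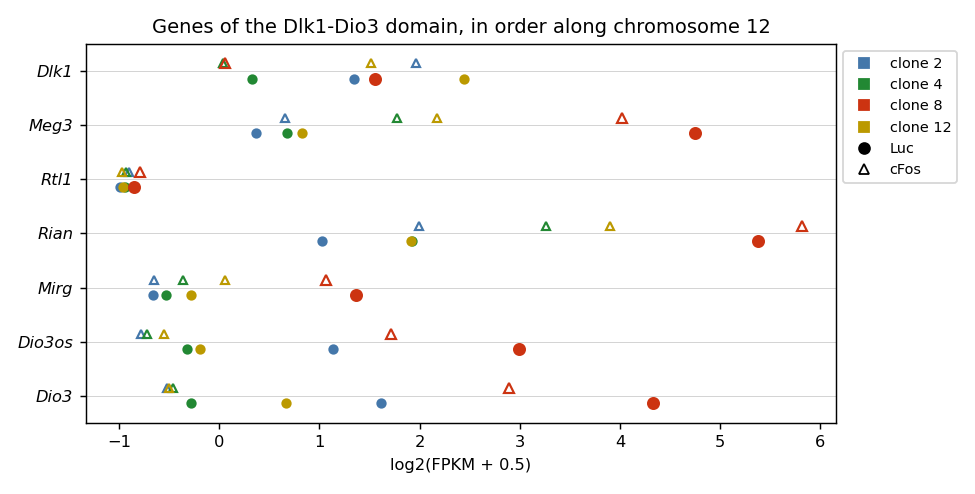
Level of 7 genes of the Dlk1-Dio3 domain as log2(FPKM + 0.5) on the x axis, in their order along chromosome 12, 1 point per library with colour for the clone, filled circles for Luc and open triangles for cFos. The clone 8 points are the highest of their arm in Meg3, Rian, Mirg, Dio3os and Dio3, and lie among the others in Dlk1; Rtl1 is near 0 FPKM in all libraries.

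Mest, an imprinted gene of chromosome 6 read from the paternal allele and known in fat cells, was also above the other lines, at 222 in Luc 8 and 93.0 in cFos 8 against 21.3 to 73.5 and 5.47 to 31.4. It was not called by library (limma adjusted p = 0.145) and was with the block (0.0282). Of 19 imprinted growth genes tested, 2 were called higher (0.162% of all genes) and 0 lower (0.0767%). The 2 were Meg3 and Dio3, both of the domain above. In both arms 5 lay above (10.7% of all genes), Meg3 and Dio3 among them, and 1 below (14.8%). The median difference was 0.26 against -0.04 over all genes. Peg10, Igf2 and Ndn, imprinted genes of other domains, did not stand apart in both arms.

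Some fat cell genes lay high in clone 8. Of 18 genes of an adipocyte list tested, 7 were above the other clones in both arms (10.7% of all genes) and 0 below (14.8%), with a median difference of 0.68. None was called, and 6 passed an unadjusted p under 0.05. Adipoq, the hormone adiponectin, was at 111 in Luc 8 and 35.2 in cFos 8. In clone 2 it was at 25.5 and 3.47 and in clones 4 and 12 at no more than 0.937. Fabp4, the fatty acid carrier of fat cells, was at 372 and 824 against 30.6 to 265 in Luc and 106 to 285 in cFos. The regulators Cebpa (72.0 and 39.9) and Pparg (54.1 and 104) lay above as well, though Pparg in Luc 8 barely exceeded clone 2 at 54.0. The lipid droplet coats Plin1 and Plin4 and the lipase Lpl completed the 7. With the clone as a block, Adipoq (limma adjusted p = 0.0159), Cebpa (0.0282) and Plin4 (0.0198) passed. Fasn and Scd1, which make fatty acids, did not stand apart in both arms. In bulk RNA more cells of a type and more RNA per cell cannot be told apart.

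Some genes of cholesterol synthesis lay low. Of 22 tested in a list of cholesterol and fatty acid synthesis, 11 were below the other lines in both arms (14.8% of all genes) and 0 above (10.7%), with a median difference of -0.43. None was called, and 11 passed an unadjusted p under 0.05. Fdft1, squalene synthase, was at 20.3 and 20.2 against 29.4 to 40.7. Cyp51, a sterol demethylase, was at 27.5 and 23.04 against 49.0 to 56.4 in Luc and 29.6 to 41.0 in cFos. Srebf2, the factor that drives these genes, was at 25.8 and 23.5, each the lowest of its arm.

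Interferon genes were mostly lowest in clone 8. Of 32 tested, 29 had their lowest Luc value in Luc 8 (36.8% of all genes), and 20 had their lowest cFos value in cFos 8 (29.8%). Both held for 19 of them (14.8%) and the opposite for 0, with a median difference of -1.01. Isg15, a ubiquitin-like modifier, was at 51.2 in Luc 8 against 197 to 660, and at 2.32 in cFos 8 against 5.42 to 12.2. Bst2, the tetherin that holds budding viruses, was at 54.5 against 238 to 757, and at 13.5 against 15.9 to 16.6. Cxcl10, an interferon-induced chemokine, was at 2.53 and 0.527 against 16.3 to 115 and 2.07 to 2.55. None of the 32 was called (13 at an unadjusted p under 0.05). In every clone these genes were lower with cFos than with Luc, with median differences of -1.94 in clone 8 and -4.93, -3.03 and -2.33 in clones 2, 4 and 12. Of 12 class I histocompatibility genes tested, all 12 were lowest in cFos 8 among the cFos libraries (29.8% of all genes) and 7 also in Luc 8 (14.8%). H2-T23 was at 10.1 and 3.67 against 26.1 to 90.0 and 20.5 to 31.0, and passed only with the block (0.0266). With quantile normalization 4 of the 12, not 7, were below in both arms.

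**Figure D3:**
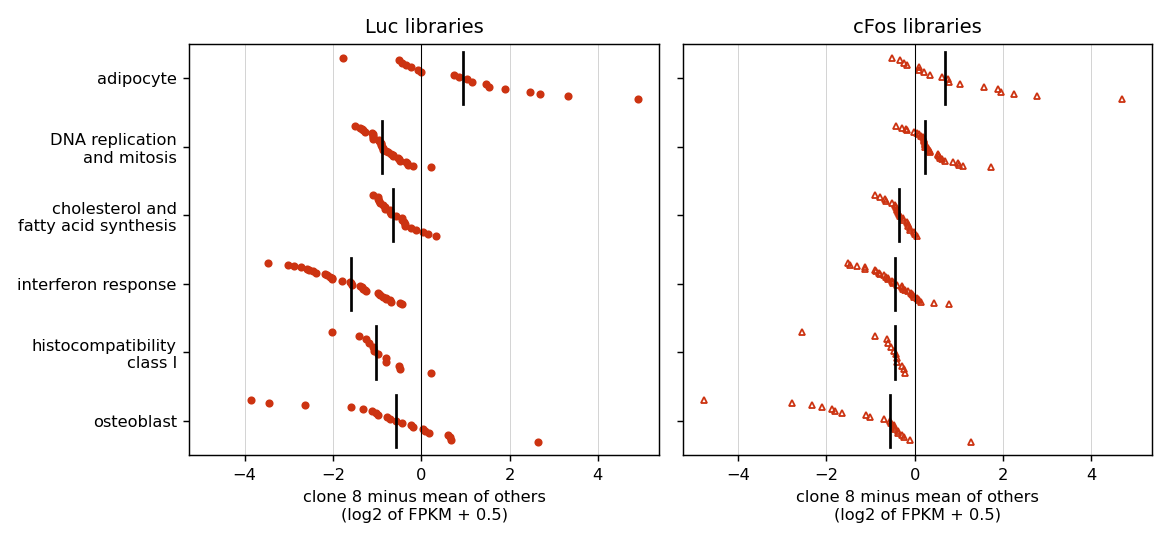
Clone 8 minus the mean of the other 3 clones, on the log2 scale of FPKM + 0.5, for the tested genes of 6 lists (1 point per gene, black bar for the median), in Luc libraries on the left and cFos libraries on the right. Replication genes have their median at -0.88 in Luc and 0.24 in cFos, and interferon genes at -1.58 and -0.44.

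Bone and cartilage genes were mixed. Of 21 osteoblast genes tested, 1 was called lower, Tnfrsf11b (0.0767% of all genes), 8 were below the other lines in both arms (14.8%) and 1 above (10.7%). Postn, a matrix protein of the periosteum, was at 25.8 in Luc 8 and 2.96 in cFos 8 against 63.1 to 525 and 51.5 to 206. Pdpn, Omd and Bmp4 were below as well. Spp1, osteopontin, was the member above, at 1549.4 and 2876 against at most 1523.3 in Luc and 1667.5 in cFos. Runx2, the master factor of osteoblasts, was at 26.0 and 19.2, within 20.6 to 28.3 in Luc and just under 19.3 to 22.6 in cFos. Of 9 cartilage genes tested, 1 was called higher (0.162% of all genes), Comp, which passed the filter only through clone 8. In both arms 2 were above (10.7%) and 1 below (14.8%). Sox9, the cartilage master factor, was at 10.4 in Luc 8 and 14.8 in cFos 8 against 6.55 to 8.13 and 15.0 to 16.3. The clone 8 difference of Sox9 was 0.23 (SE 0.17, limma adjusted p = 0.526). Col2a1, the main cartilage collagen, was at 0.182 and 0.0213, the lowest of each arm. Of 25 limb patterning factors tested, 9 were below (14.8% of all genes) and 1 above (10.7%), and 0 were called. Shox2 was at 4.03 and 2.92 against 4.76 to 17.9, and Tbx18 was the one above, at 60.7 and 15.3.

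Among signalling genes few were called. Of 28 Wnt genes tested, Fzd1 was called higher (0.162% of all genes) and Sfrp4 lower (0.0767%). In both arms 2 were above (10.7% of all genes) and 6 below (14.8%), shares near those of all genes. Fzd4, another receptor, was above at 5.72 and 1.22, and the Wnt-responsive factors Lef1 and Tcf7 and the antagonist Wif1 were below. Bmp5, a ligand of the bone morphogenetic class, was at 35.4 and 6.94 against at most 5.73 and 1.74, and passed with the block (limma adjusted p = 0.0428). Igfbp4, which binds insulin-like growth factors, was at 624 in Luc 8 against 39.5 to 60.2 and at 107 in cFos 8 against 42.1 to 87.1. Clu, clusterin, was at 127 and 47.8 against 4.73 to 17.9. Inhba, an activin subunit, was below at 8.84 and 8.24 and passed with the block (0.0492). Neither TGF-beta nor growth factor genes gave a call. Of 27 TGF-beta and BMP genes tested, 6 were above (10.7% of all genes) and 7 below (14.8%) in both arms. For 29 growth factor genes these counts were 3 and 4.

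Of 20 marrow niche genes tested, 4 were above (10.7% of all genes) and 5 below (14.8%) in both arms. Cxcl12, the chemokine that holds blood stem cells in the marrow, was at 7270.2 in Luc 8 against 1168 to 2541, and at 287 in cFos 8, inside 174 to 645. Vcam1, an adhesion molecule of the niche, was at 170 in Luc 8 and 38.5 in cFos 8 against 14.3 to 32.4. Angpt1, a niche ligand, was at 159 and 17.6 against 5.73 to 56.4 and 2.65 to 6.10. Cd44, the hyaluronan receptor, was below at 16.7 and 39.0. Ly6a, the Sca-1 surface marker, was at 9.59 in Luc 8 against 104 to 252 and at 234 in cFos 8 against 92.2 to 162. None of the 20 was called (4 higher and 5 lower at an unadjusted p under 0.05).

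Among 23 p53 targets and Ink4-Arf inhibitors, 8 were below (14.8% of all genes) and 4 above (10.7%) in both arms, and 0 were called (9 at an unadjusted p under 0.05). Cdkn2b, a cyclin kinase inhibitor of the Ink4 class, was at 35.0 and 21.4 against 53.2 to 93.5, and passed with the block (limma adjusted p = 0.0267). Cdkn1a, the inhibitor p21, was at 0.311 and 3.36 against 1.06 to 3.89 and 5.27 to 15.5, and also passed with the block (0.0251). Fas, a death receptor, was above at 7.25 and 1.82 against 2.90 to 4.11 and 0.827 to 1.502. These genes have other regulators, and all 4 lines carry the p53 knockout label.

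Fos itself was high in the control library of clone 8. It was at 302 FPKM in Luc 8 and at 76.2, 41.1 and 43.5 in the Luc libraries of clones 2, 4 and 12. With cFos it was at 1019 in clone 8 and at 589, 675 and 505 in the others, in the same order. Both clone 8 libraries were above the others. The clone difference of 1.67 (SE 0.39) was not called (limma adjusted p = 0.141). Of 19 genes of the AP-1 and immediate early list, which cells switch on soon after a stimulus, 8 were highest in Luc 8 (27.3% of all genes) and 7 were lowest (36.8%). Among the 8 were Fosb, Nr4a1, Ier2 and Egr1. Fosb was at 39.8 against 3.34 to 12.7, Nr4a1 at 43.1 against 6.24 to 24.3, Ier2 at 67.5 against 21.2 to 33.3 and Egr1 at 234 against 67.2 to 109. In cFos 8, Nr4a1 (1.79), Ier2 (15.3) and Egr1 (46.6) were the lowest of the cFos libraries. Fosl2 and Myc were below the other lines in both arms. The FPKM of Fos may include reads from the virus, which were not separated here.

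The second question was whether clone 8 answered cFos as the other lines did. Most genes that cFos changed elsewhere changed the same way in clone 8. In clones 2, 4 and 12 alone, limma called 251 genes higher with cFos (2.14%) and 190 lower (1.62%). Clone 8, which took no part in that choice, had the same sign at 239 of the 251 (95.2%) and at 179 of the 190 (94.2%). The median rise of the 251 was 1.68 in clone 8 and 1.82 in the others. The median fall of the 190 was -1.36 in clone 8 and -1.93 in the others, and 106 of them (55.8%) changed less in clone 8 than in every other clone. This was not limited to clone 8. With clone 12 left out in the same way it was 73.0% of its own 167 genes, with clone 4 it was 41.9% of 31 and with clone 2 it was 7.27% of 55. At these 190 genes Luc 8 was already lower than the other Luc libraries by a median of 0.73, and cFos 8 differed by -0.03. At the genes of their own sets, the Luc libraries of clones 12 and 4 had medians of -0.52 and -0.40 against the others, and that of clone 2 had 1.504. Leaving out clone 2, 4 or 12 in the same way gave 96.2% to 100% with the same sign, over other sets of called genes. Across genes the response of clone 8 correlated with those of clones 2, 4 and 12 by 0.512, 0.505 and 0.408, and the other 3 among themselves by 0.577 to 0.683 (Pearson, 11737 genes that are not independent).

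The sign of the cFos minus Luc difference in clone 8 was opposite to that in all 3 other clones at 1780 genes. It was up in clone 8 and down in the others at 1185 (10.1%), and down in clone 8 and up in the others at 595 (5.07%). With clone 12 as the odd one the total was 1525, with clone 2 it was 1013 and with clone 4 it was 661. Most of these genes had a difference under 0.3 in at least 1 clone: 168 of the 1780 genes had a difference of at least 0.3 in each of the 4 clones. A test of the response of clone 8 against the other 3, on the within-clone differences, called 1 gene with a higher response (0.00852%) and 1 with a lower one (0.00852%), with 1428 at an unadjusted p under 0.05. An interaction fit on the 8 libraries called 0 (908 at an unadjusted p under 0.05).

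Genes of DNA replication and mitosis often had the opposite sign. Of 31 tested, 24 were higher with cFos in clone 8 and lower with cFos in the 3 other lines, beside 10.1% of all genes. The median cFos minus Luc difference was 0.80 in clone 8 and -0.79, -0.34 and -0.45 in clones 2, 4 and 12. Both clone 8 libraries took part: 29 of the 31 were lowest in Luc 8 among the Luc libraries (36.8% of all genes), and 19 were highest in cFos 8 among the cFos libraries (26.0%). Mcm5, a subunit of the replicative helicase, was at 14.4 in Luc 8 against 35.8, 39.9 and 36.6, and at 22.3 in cFos 8 against 12.5, 22.9 and 19.9 (clones 2, 4 and 12). Rrm2, which supplies deoxynucleotides, was at 31.6 in Luc 8 against 33.9 to 74.5 and at 102 in cFos 8 against 18.5 to 48.9. Plk1, a mitotic kinase, went from 10.4 to 23.5 in clone 8 and from 20.3 to 28.1 down to 8.73 to 14.2 in the others. Mki67, a marker of dividing cells, was at 19.7 in Luc 8 and 36.9 in cFos 8, and at 22.6 to 27.6 and 13.9 to 20.8 elsewhere. Ccnd1, Ccnd2, Ccnd3, Ccne2, Ccnb2, E2f1 and Mcm4 were the 7 without the opposite sign. None of the 31 passed the response test alone, where Rrm2 had a limma adjusted p of 0.0842. The time of harvest and the density of each culture are not in the labels, and their part in this was not tested.

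**Figure D4:**
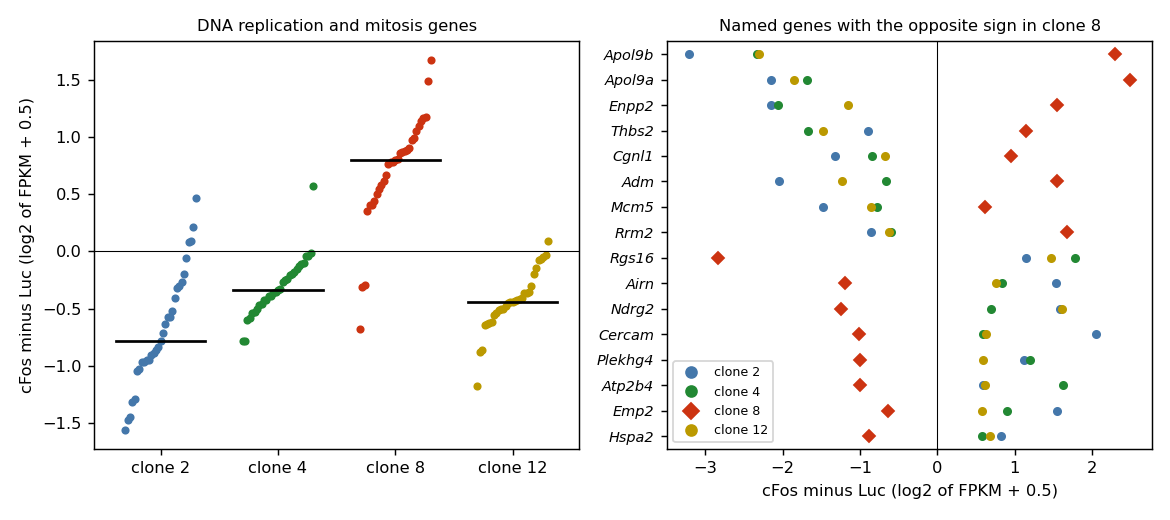
Left, cFos minus Luc on the log2 scale of FPKM + 0.5 for 31 DNA replication and mitosis genes in each clone (1 point per gene, black bar for the median). Right, the same difference for the 16 named genes whose sign in clone 8 (red diamonds) is opposite to that of clones 2, 4 and 12.

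Of 24 glycolysis and hypoxia genes tested, 2 had the opposite sign and 11 were lowest in Luc 8 among the Luc libraries (36.8% of all genes). The median difference of Luc 8 was -0.71, and the median cFos minus Luc difference was 1.14 in clone 8 against 0.84, -0.11 and 0.13. Pkm, the last kinase of the pathway, was at 236 in Luc 8 against 419 to 896 and at 866 in cFos 8, inside 657 to 945. Pgk1 and Eno1 were lowest in Luc 8 as well, at 189 and 283, and in cFos 8 Pgk1 at 556 was inside the range of the others while Eno1 at 906 was the highest.

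Apol9a and Apol9b, a pair of interferon-inducible apolipoprotein L genes on chromosome 15, had the largest opposite response upward among the named genes, small RNAs being passed over. The small nucleolar RNA Snora23 had a larger response difference (5.81, limma adjusted p = 0.0806), with levels of at most 5.998 FPKM. Apol9a was at 4.99 in Luc 8 and 30.4 in cFos 8. In the other lines it went from 34.2, 46.1 and 30.2 with Luc to 7.32, 14.0 and 7.96 with cFos. Its response differed by 4.39 (SE 0.29, limma adjusted p = 0.0438) and was the one called higher. Apol9b, a near-identical copy whose reads may be shared with it, went from 4.59 to 24.4 in clone 8 and was lower with cFos in all 3 others. The call of Apol9a was lost in the interaction fit (adjusted p = 0.219) and without clone 4 or clone 12 (0.0711 and 0.0546). Cpxm1, a secreted carboxypeptidase-like protein, was the one called lower: it was at 65.4 in Luc 8 and 1.78 in cFos 8, and at 3.91 to 11.6 and 3.88 to 15.7 in the others (response difference -5.10, SE 0.33, limma adjusted p = 0.0438). It was lost in the interaction fit (0.433) and without clone 4 or clone 12 (0.0586 and 0.0546).

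Other genes with the opposite sign had larger changes than most but did not pass the test. Enpp2, the enzyme autotaxin, and Thbs2, a matrix protein, were at 3.38 and 53.5 in Luc 8, far under the 26.3 to 68.3 and 289 to 780 of the other Luc libraries, and higher in cFos 8 at 10.8 and 119. Rgs16, a brake on G protein signals, went from 8.50 in Luc 8 to 0.766 in cFos 8 and from 3.08 to 3.66 up to 8.22 to 13.7 elsewhere. Emp2, a membrane protein, was at 19.6 and 12.4 in clone 8 while the other cFos libraries were at 46.3 to 63.1. Krt19, a keratin, was higher with cFos in all 4 clones, from 1.39 to 356 in clone 8 and from 5.19 to 28.7 up to 35.8 to 149 elsewhere, and its response difference of 5.08 had an adjusted p of 0.0598. Of the genes called in the other clones, 12 of those up and 11 of those down had the opposite sign in clone 8. They included Col3a1, a fibrillar collagen with a rise of 1.89 in the others and -0.27 in clone 8, and Socs3, a cytokine signal inhibitor with 0.94 and -0.55.

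Position along the chromosomes was described last. On chromosome 13 the median difference of clone 8 was -0.31 over 436 genes, with 40.4% below and 2.75% above all other lines in both arms. It held in each arm alone, at -0.33 in Luc and -0.27 in cFos, and at -0.27 without clone 2. Windows of 20 neighbouring genes reached a median of at least 0.5 in size in 6 regions, 3 of them on chromosome 13. Regions were picked by these medians, so a majority of genes on the same side is no result. In the region on chromosome 18, 11 of 21 genes were higher. The same rule gave regions in clone 2 on chromosomes 12 and 18, and in clone 12 on chromosomes 3 and 7. The one with the lowest window held 29 genes from Fam120a to Cplx2 (48974586 to 54485278 in mm9, 28 of them lower). Chromosome 17 had a median of -0.21, at -0.22 in Luc and -0.21 in cFos. Its region from Hspa1b to H2-Q9 (35093374 to 35580718), which holds histocompatibility genes, had 21 of 22 genes lower.

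Chromosome 7 differed between the clone 8 libraries. Its median difference was 0.34 in cFos 8, where 68.4% of 830 genes were the highest of the 4 cFos libraries, and 0.09 in Luc 8, where 34.7% were the highest of the Luc libraries. The share over all genes was 26.0% in cFos 8 and 27.3% in Luc 8. A region picked by the same window rule at the end of this chromosome, from Acadsb to Mapk1ip1 (138554115 to 146037950), had 22 of 24 genes higher in clone 8. Chromosome 10 lay below the other lines, with -0.29 in Luc 8 and -0.07 in cFos 8, so there too the cFos 8 value was the higher. Chromosome 12 had a median of 0.16 that became -0.01 without clone 2. In clone 2 the medians were -0.49 on chromosome 12 and -0.28 on chromosome 3. Gene dose was not measured in these files.

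**Figure D5:**
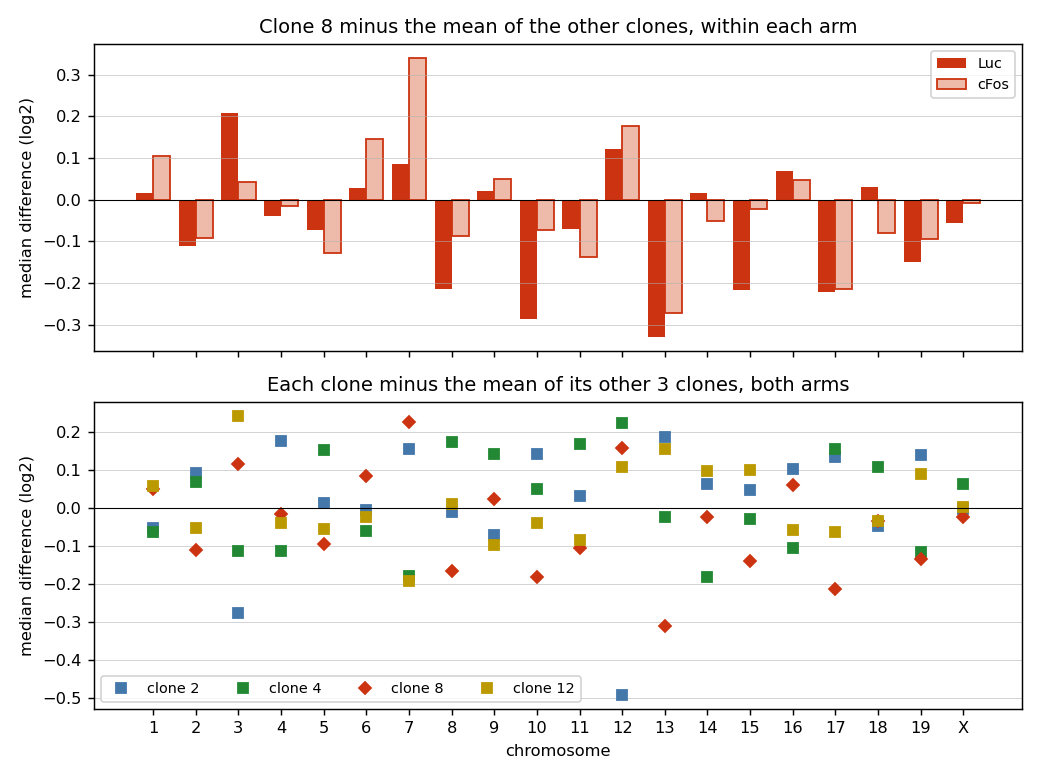
Median log2 difference per chromosome. Top, clone 8 minus the mean of the other clones in the Luc libraries (solid bars) and the cFos libraries (pale bars); bottom, each clone minus the mean of its other 3 clones over both arms. Chromosome 13 is at -0.33 and -0.27 in the 2 arms of clone 8, and chromosome 7 at 0.09 and 0.34.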

How the data were processed

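RNA of 8 cultures (4 clones, 2 viruses) was sequenced as polyadenylated RNA with Illumina TruSeq libraries, per the labels' protocols. The tools were CASAVA (1.8.2), TopHat and Cufflinks on mouse build mm9, per the submitters' processing notes. Options: not given in the sources used here. The deposited tables give, per the file headers, the authors' FPKM with confidence limits and the coverage (a signal, mean depth per base) for each of 30769 transcript entries; Cufflinks assigns shared reads by likelihood, which leaves genes with near-identical copies uncertain. The coverage and the transcript length in the deposited tables served only to estimate depth.

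Entries were named from a RefSeq table (30227) and GENCODE metadata (180), 362 kept their accession (0.828% of the FPKM), and FPKM was summed to 23503 genes, of which 3 with a failed estimate in any library were left out. Starts in the tables count from 0 and were raised by 1. limma 3.58.1 in R 4.3.3 (lmFit, eBayes with trend, two-sided, Benjamini-Hochberg) was fitted with a term for clone 8 and one for arm to log2(FPKM + 0.5). The 11737 genes tested reached 1 FPKM in 2 or more of the 8 libraries. The cFos response of clone 8 was tested on the 4 within-clone differences. Fold changes of low genes are understated on this scale. Python 3.11.15, pandas 2.3.3, numpy 2.4.6 and matplotlib 3.10.9 did the rest. The code was tested on simulated data.

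Clone numbers pair the libraries, each number being 1 line. Deviations from the arm means correlated by 0.175, 0.415, 0.291 and 0.444 within clones 2, 4, 8 and 12. Nothing says that the 4 clones are separate animals, so no p-value here speaks for other animals. The error of the fit by library mixes the spread within and between these lines. That of the block holds only the spread within them. The fit on clone means and the test on within-clone differences take their error from the spread between these lines.

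The clone, the gene lists and the tests were chosen with earlier results of these data known. Named genes are Fos, Trp53 and Sox9; up to 12 called genes per direction with the largest differences, outside the range of the other clones in both arms, with a mean of at least 5 FPKM (predicted, pseudo and small RNA genes and accessions passed over); up to 4 members per list; up to 8 opposite-sign genes per direction; and up to 8 by the response test. Others were named after their values were seen. Alternatives were pseudocounts of 0.1 and 1, 3 other filters, median and quantile scaling, clone-level fits, transcript entries, and each library or clone left out.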

Additional observations from a re-analysis of the deposited data

Results flagged for a closer look

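Each gene here had a cFos minus Luc difference in clone 8 of the opposite sign to that in clones 2, 4 and 12, or a response difference that passed the test. The values are the response of clone 8 minus the mean of the other 3, on the log2 scale, with limma adjusted p over 11737 genes. Apol9a at 4.39 and Cpxm1 at -5.10 passed (both adjusted p = 0.0438); Cpxm1 did not have the opposite sign in clone 8 to all others.

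The other 15 did not pass. Upward in clone 8 were Apol9b at 4.90 (adjusted p = 0.0767), Enpp2 at 3.33 (0.151), Adm, a vasodilator peptide, at 2.87 (0.211), Thbs2 at 2.49 (0.163), Rrm2 at 2.38 (0.0842), Cgnl1, a junction protein, at 1.90 (0.209), and Mcm5 at 1.66 (0.232). Downward were Rgs16 at -4.29 (0.0665), Ndrg2 at -2.54 (0.209), Airn, an imprinted noncoding RNA, at -2.23 (0.209), Cercam at -2.11 (0.304), Plekhg4 at -1.97 (0.209), Atp2b4, a calcium pump, at -1.94 (0.259), Emp2 at -1.65 (0.258) and Hspa2 at -1.58 (0.209). These genes were picked for the opposite sign, so its presence in all of them is no result.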

How the results depend on the processing

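The 19 higher and 9 lower calls became 10 and 12 at a pseudocount of 0.1, 31 and 5 without the filter on low values, 12 and 8 at 1 FPKM in 4 libraries, 7 and 5 at 5 FPKM in 2, and 15 and 5 with each transcript entry tested alone. With the clone as a replicate block they became 66 and 51, on clone means 0 and 0, and with the correlation within a clone estimated 7 and 5. Leaving out 1 library or 1 clone gave 0 to 29 higher and 0 to 16 lower. The 19 named called genes kept their direction in each gene-level fit that gave them a value (15 of them at 1 FPKM in 4 libraries); their calls held in 19 with the block, 19 with median scaling, 13 with quantile scaling and 0 on clone means or without Luc 8. Sox9, at 0.23, ran from -0.068 (without Luc 8) to 0.521 (without cFos 8).

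The opposite-sign count of 1780 lay between 1438 and 2274 under other filters and scalings and was 168 with a minimum size of 0.3, an alternative chosen after seeing the data. It needs both libraries of every clone, so none could be left out. The 2 response calls became 5 at a pseudocount of 0.1, 7 without a filter, 7 at 1 FPKM in 4 libraries, 4 at 5 FPKM and 0 in the interaction fit, and 3 to 61 with 1 clone left out, 61 being without clone 2 and 4 without clone 12. The causes were not tested. Quantile scaling left 4 of 12 class I genes below the other lines. The confidence limits deposited with the FPKM were not used, so no limit is set here on what low genes could show.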

Other observations

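S100b, a calcium-binding protein of glia, cartilage and fat cells, was at 15.4 FPKM in Luc 8 and 10.5 in cFos 8, and at no more than 4.58 in the other lines, while Sox10 was at 0. The Y-linked gene Ddx3y was read at 14.0 to 30.3 FPKM and Xist at no more than 0.0691 in all 8 libraries.

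An entry of 71 bases inside Rian, shorter than a polyadenylated library holds well, was listed at 2389.7 FPKM in Luc 8 and at 0 in the other 7 libraries. It passed no filter that needs 2 libraries and was not tested.

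Rmrp, the RNA of a mitochondrial RNA processing enzyme, was at 0.282 in Luc 8 and 22.8 in cFos 8, and at 1.64 to 7.26 in the other lines.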
